A study of Homo sapiens with 24 samples.

Results

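Plasminogen activation, the start of blood clotting and the breakdown of extracellular matrix are followed here through 9 genes: the plasminogen activators PLAU (urokinase) and PLAT (tissue plasminogen activator), the urokinase receptor PLAUR, the protease inhibitor SERPINE2, the clotting initiator F3 (tissue factor) with its inhibitor TFPI, the membrane metalloproteinase MMP14, and the metalloproteinase inhibitors TIMP1 and TIMP2. The rule that picks them names genes and uses no measured value, though the set was proposed with earlier results of these data known, and they are 9 of the 33127 genes in the table. The samples were A549 cells, an established line of human lung adenocarcinoma, exposed to 100 nM dexamethasone (dex, a synthetic glucocorticoid) dissolved in ethanol, or to an equal volume of ethanol alone (EtOH, 0.02% of the medium by volume). Cells were harvested after 1, 3, 5, 7, 9 or 11 h, with 2 libraries a group and 24 altogether, so that every dex group had its own EtOH group of the same hour. All 12 groups were the same unmodified line grown alone in serum-containing medium, and poly-A RNA was the only readout. Groups follow the duration given for each sample, which runs to 11 h, although the free text on treatment in the labels gives 1 h for every library. The study's methods speak of triplicates, and the labels give 2 biological replicates per group. The p-values below thus rest on 2 libraries a group, with the spread of each gene drawn towards that of all features.

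Plasmin, a broad protease, is cut from its precursor plasminogen by urokinase or by tissue plasminogen activator, and urokinase bound to its receptor does this at the cell surface. Serpins such as SERPINE2 trap these enzymes, while tissue factor starts the clotting cascade whose fibrin plasmin later removes. MMP14 cuts collagen and activates another metalloproteinase at the membrane, and TIMPs hold such enzymes in check. Glucocorticoids act through the glucocorticoid receptor, a transcription factor that raises some genes directly and lowers many inflammatory genes.

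Between 6708864 and 13748598 reads were counted per library, with a median of 10109393.5. The 5 epithelial markers checked (KRT8, KRT18, KRT19, EPCAM, CDH1) summed to between 3207 and 10482 CPM (counts per 1000000 reads counted) in each library, against at most 3.55 CPM for 4 blood markers, 2.10 CPM for 3 fibroblast markers and 1.05 CPM for the 2 endothelial markers found, and CD3E was at 0 in every library. KRT8 (1424 to 5029 CPM) and KRT18 (1736 to 5437 CPM) were the bulk of the epithelial sum. CDH1 held 28.6 to 59.4 CPM, KRT19 8.21 to 21.2 CPM and EPCAM only 4.08 to 11.2 CPM. Of 5 glucocorticoid-responsive genes that checked the treatment, 4 rose at 1 h and 5 at every later time. CPM here is scaled by trimmed mean normalization (TMM), and changes are the fitted log2 ratio of dex over EtOH with its standard error (SE), tested with edgeR's quasi-likelihood F-test and called at a Benjamini-Hochberg adjusted p of at most 0.1 over 19897 features.

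All 9 genes held enough reads to be tested. At 1 h 1 of them was called higher and 2 lower, against backgrounds over all features of 0.523% higher and 0.342% lower (0.864% in all). At 3 h 1 was higher and 3 were lower (backgrounds 7.66% and 5.29%, 12.9% in all), and at 5 h 1 was higher and 4 were lower (backgrounds 11.2% and 11.9%, 23.1% in all). At 7 h 1 was higher and 3 were lower (backgrounds 13.4% and 12.4%, 25.8% in all). At 9 h the counts were again 1 and 4 (backgrounds 9.79% and 8.42%, 18.2% in all), and at 11 h 1 and 3 (backgrounds 5.31% and 3.27%, 8.58% in all). The single member that was higher was F3 at 1 h, 3 h and 11 h, and PLAU at 5 h, 7 h and 9 h. The median log2 difference of the 9 was 0.15 at 1 h, 0.01 at 3 h, -0.37 at 5 h, -0.36 at 7 h, -0.28 at 9 h and -0.22 at 11 h, whereas the median over all features lay between -0.0097 and 0.0044. Counted by whether both dex libraries lay on the same side of both EtOH libraries, a looser rule with no test, 3 members lay above and 2 below at 1 h (14.1% and 21% of all features), 3 and 3 at 3 h (26.3% and 24.2%), 1 and 6 at 5 h (25.4% and 28.9%), 2 and 5 at 7 h (29.7% and 27.2%), 2 and 6 at 9 h (25.9% and 27.9%), and 1 and 5 at 11 h (23.2% and 21.9%). As in any bulk sample, fewer cells that make a transcript and less of it per cell cannot be told apart.

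**Figure D1:**
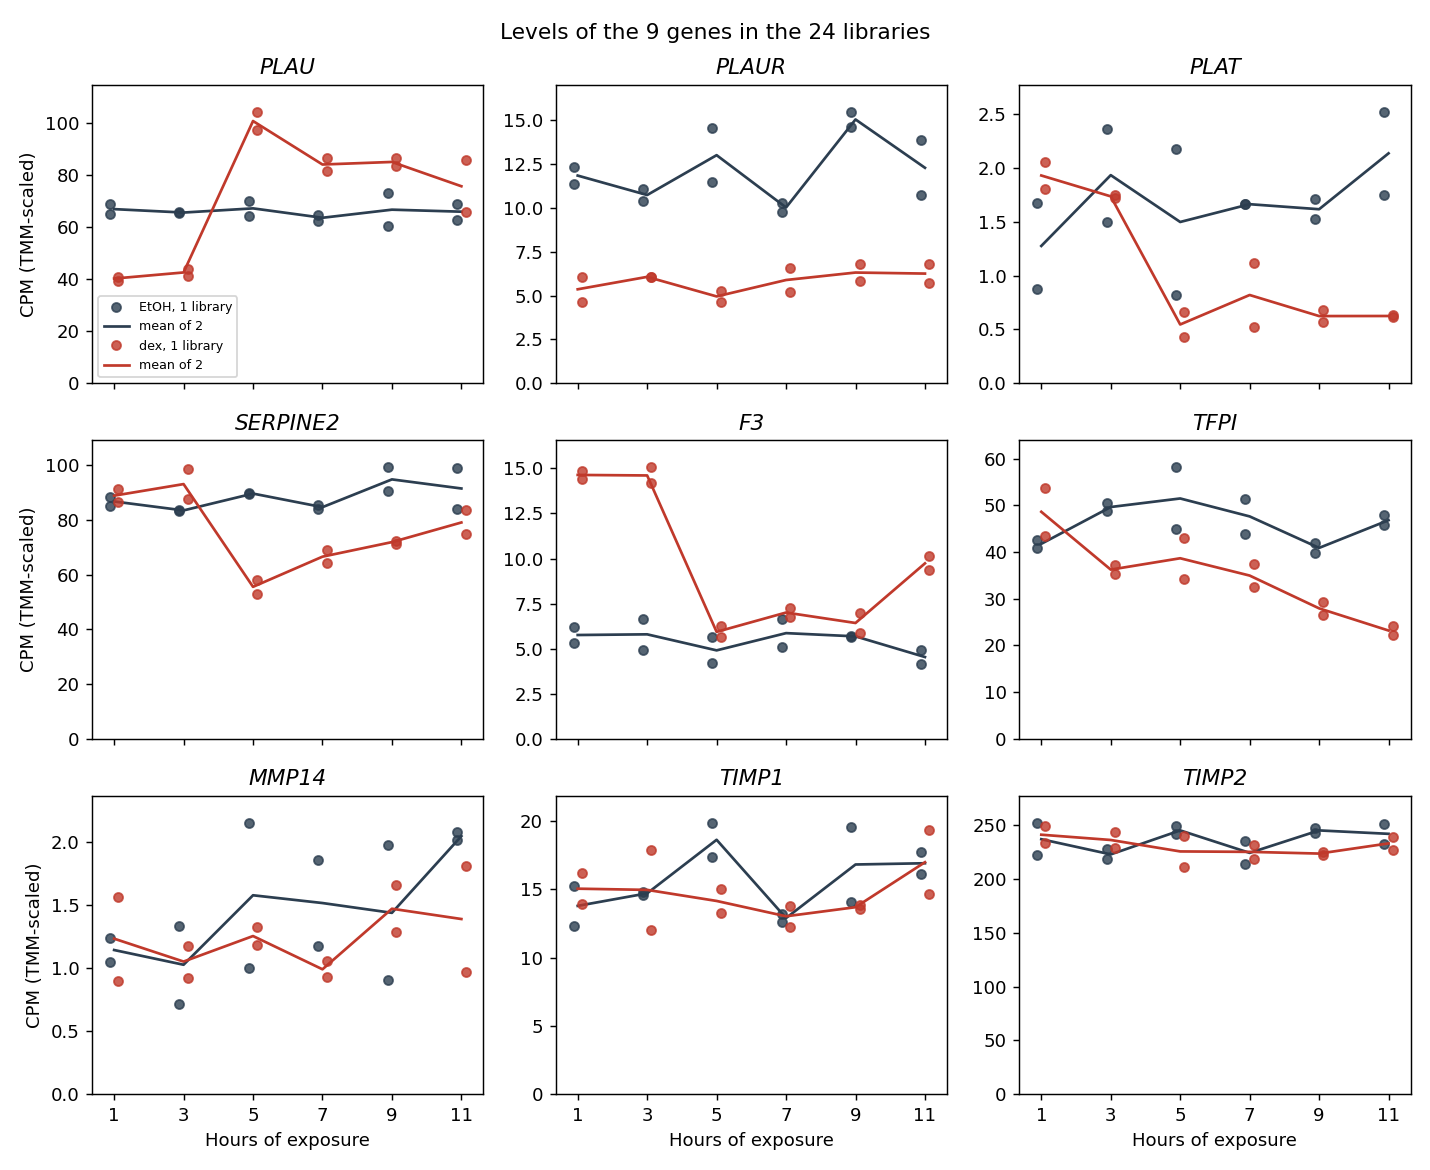
Level of each of the 9 genes in CPM (TMM scaled) in every library, against hours of exposure, with dex and EtOH libraries as separate points. PLAU with dex lay below EtOH at 1 h and 3 h and above it at 5 h, 7 h and 9 h, and PLAUR with dex stayed below EtOH at all 6 times.

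PLAU encodes urokinase, the secreted serine protease that activates plasminogen on cells and in tissue. Its direction of response turned over between 3 h and 5 h. At 1 h the dex libraries held 41.0 and 39.5 CPM and the EtOH libraries 68.9 and 64.9 CPM. At 3 h they held 41.3 and 43.9 CPM with dex and 65.3 and 65.9 CPM with EtOH. All 4 dex libraries of these hours thus lay below all 4 EtOH libraries, and PLAU fell by 0.70 on the log2 scale at 1 h (SE 0.13, edgeR adjusted p = 0.00537) and by 0.62 at 3 h (SE 0.11, edgeR adjusted p = 0.000193). At 5 h the dex libraries reached 97.2 and 104 CPM, against 70.1 and 64.2 CPM. At 7 h they held 86.4 and 81.6 CPM against 62.3 and 64.8 CPM, and at 9 h 86.7 and 83.3 CPM against 60.4 and 72.9 CPM. Now every dex library was the higher one, by 0.60 on the log2 scale at 5 h (SE 0.11, edgeR adjusted p = 2.5e-05), 0.39 at 7 h (SE 0.09, adjusted p = 0.00108) and 0.36 at 9 h (SE 0.13, adjusted p = 0.0732). At 11 h the dex libraries, at 65.7 and 85.6 CPM, overlapped the EtOH libraries, at 62.9 and 68.9 CPM, and the difference of 0.19 (SE 0.16) was not called (edgeR adjusted p = 0.647). That value was 0.38 without replicate 1 of dex (adjusted p = 0.00388) and -0.0054 without replicate 2. The fall at 1 h was not called without replicate 1 of EtOH (-0.65, adjusted p = 0.179). The rise at 9 h was the least firm, being lost without replicate 1 of dex (adjusted p = 0.488), replicate 2 of dex (0.349) or replicate 1 of EtOH (0.22, adjusted p = 0.125), and with DESeq2 (adjusted p = 0.194).

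PLAU lies on chromosome 10 at 73909177 to 73917497 on the plus strand (GRCh38, GENCODE 29), and 16766 reads were counted over its 3 transcripts. The 2 main transcripts took 49.2% and 47.7% of them. Both moved alike, with log2 differences of -0.79 and -0.65 at 1 h and of 0.58 and 0.67 at 5 h. Reads that map to both can be counted in either, so the 2 are not independent measures. An exon of C10orf55 overlaps PLAU, and its reads, 4.43% of those of both genes, could not be told apart from PLAU's unless strand was used in counting, which is not stated.

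PLAT encodes tissue plasminogen activator, the activator best known for dissolving fibrin. It was scarce, with 334 reads in all, 4 to 21 in each dex library and 8 to 26 in each EtOH library. At 1 h 21 and 12 reads were counted with dex and 10 and 23 with EtOH (2.05 and 1.80 CPM against 0.87 and 1.68 CPM), and at 3 h 1.75 and 1.72 CPM against 2.36 and 1.50 CPM. Neither hour was called, with log2 differences of 0.61 (SE 0.42) and -0.13 (SE 0.37). From 5 h on every dex library was lower than both EtOH libraries of its hour. The levels were 0.43 and 0.66 CPM against 0.82 and 2.17 CPM at 5 h, and 1.11 and 0.53 CPM against 1.66 and 1.66 CPM at 7 h. They were 0.57 and 0.68 CPM against 1.52 and 1.71 CPM at 9 h, and 0.62 and 0.63 CPM against 2.52 and 1.75 CPM at 11 h. PLAT fell by 1.47 on the log2 scale at 5 h (SE 0.55, edgeR adjusted p = 0.0584), by 1.31 at 9 h (SE 0.47, adjusted p = 0.0797) and by 1.75 at 11 h (SE 0.47, adjusted p = 0.0421), and the difference of -0.95 at 7 h was not called (SE 0.47, adjusted p = 0.164). None of these calls was firm. DESeq2 gave adjusted p = 0.394 at 5 h and 0.237 at 11 h, and none at 9 h, where its filter left PLAT out. The call at 5 h was lost without replicate 1 of dex (-1.20, adjusted p = 0.227) or replicate 2 of EtOH (-0.56, adjusted p = 0.755). That at 9 h was lost without replicate 1 of dex (adjusted p = 0.306), replicate 2 of dex (0.324) or replicate 2 of EtOH (0.154), and that at 11 h without replicate 1 of EtOH (-1.47, adjusted p = 0.358). PLAT lies on chromosome 8.

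PLAUR encodes the receptor that holds urokinase at the cell surface. It was the member with the most even response, being called lower at all 6 times. The 12 dex libraries held 4.63 to 6.78 CPM and the 12 EtOH libraries 9.79 to 15.5 CPM, so that no dex library of any hour reached the lowest EtOH library. At 1 h the levels were 6.07 and 4.65 CPM with dex and 12.3 and 11.4 CPM with EtOH. At 5 h they were 5.27 and 4.63 CPM against 14.5 and 11.5 CPM, and at 9 h 5.85 and 6.78 CPM against 14.6 and 15.5 CPM. These were the hours of the larger differences, and PLAUR fell by 1.08 on the log2 scale at 1 h (SE 0.22, edgeR adjusted p = 0.0148), by 1.36 at 5 h (SE 0.21, adjusted p = 2.14e-06) and by 1.22 at 9 h (SE 0.19, adjusted p = 0.000388). The levels at 3 h were 6.06 and 6.07 CPM against 10.4 and 11.1 CPM, at 7 h 5.19 and 6.58 CPM against 9.79 and 10.2 CPM, and at 11 h 5.73 and 6.78 CPM against 13.8 and 10.7 CPM. Here PLAUR fell by 0.82 (SE 0.19, edgeR adjusted p = 0.00357), 0.80 (SE 0.20, adjusted p = 0.0024) and 0.98 (SE 0.23, adjusted p = 0.0185). The call at 1 h was lost without replicate 1 of EtOH (-1.03, adjusted p = 0.115), that at 7 h without replicate 1 of dex (-0.61, adjusted p = 0.148) and that at 11 h without replicate 1 of EtOH (-0.78, adjusted p = 0.356). PLAUR lies on chromosome 19 at 43646095 to 43670547 on the minus strand (GRCh38, GENCODE 29). Its 2227 reads were spread over 12 transcripts, the most counted with 18.5% of them. Tested by itself, that transcript was called lower at 3 h and 5 h and at no other time. Other transcripts were called lower too: PLAUR-214 at 3 h and 5 h, PLAUR-201 at 5 h, PLAUR-202 and PLAUR-205 at 5 h and 9 h, and PLAUR-209 at 11 h. No transcript was called at 1 h or 7 h.

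SERPINE2 encodes protease nexin-1, a serpin that inhibits urokinase, tissue plasminogen activator and thrombin. Its level was near that of EtOH for the first hours and lower from 5 h. At 1 h the dex libraries held 91.3 and 86.6 CPM, overlapping the EtOH libraries at 88.6 and 85.0 CPM, and at 3 h 98.5 and 87.8 CPM against 83.5 and 83.6 CPM. The log2 differences of 0.07 (SE 0.12) and 0.16 (SE 0.11) were not called. At 5 h the dex libraries held 53.1 and 58.0 CPM against 90.0 and 89.4 CPM with EtOH. At 7 h the levels were 64.2 and 69.0 CPM against 85.5 and 83.9 CPM, and at 9 h 71.4 and 72.5 CPM against 90.5 and 99.2 CPM. All 6 dex libraries of these hours lay below every EtOH library, and SERPINE2 fell by 0.67 on the log2 scale at 5 h (SE 0.11, edgeR adjusted p = 4.9e-06), by 0.36 at 7 h (SE 0.09, adjusted p = 0.00261) and by 0.39 at 9 h (SE 0.12, adjusted p = 0.0366). At 11 h 74.7 and 83.5 CPM stood against 99.0 and 84.1 CPM, a difference of -0.22 (SE 0.15) that was not called (edgeR adjusted p = 0.544) but was without replicate 2 of dex (-0.29, adjusted p = 0.0564). The call at 7 h was lost without replicate 1 of dex (-0.30, adjusted p = 0.151), and that at 9 h without replicate 1 of dex (adjusted p = 0.393) or replicate 2 of dex (0.36) and with DESeq2 (adjusted p = 0.114). The gene lies on chromosome 2 at 223975112 to 224039319 on the minus strand (GRCh38, GENCODE 29).

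**Figure D2:**
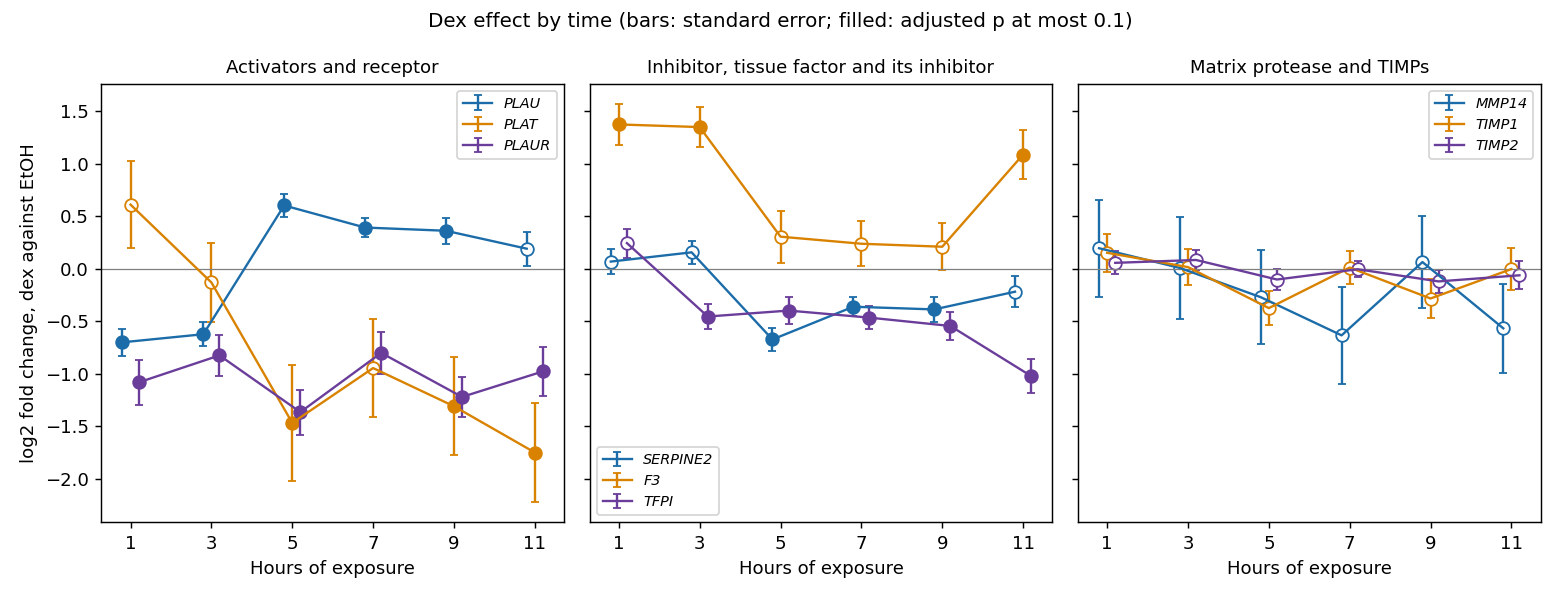
Fitted log2 ratio of dex over EtOH for each of the 9 genes at each hour, with bars of 1 SE and filled points where edgeR's adjusted p was at most 0.1. PLAU crosses from -0.62 at 3 h to 0.60 at 5 h, while F3 drops from 1.35 to 0.30 over the same interval.

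F3 encodes tissue factor, the membrane receptor for clotting factor VII that starts coagulation. Its rise was called at 1 h, 3 h and 11 h and not at 5 h, 7 h or 9 h. The effect at 11 h minus that at 5 h was 0.78 (SE 0.30), which was not called (edgeR adjusted p = 0.261). At 1 h the dex libraries held 14.9 and 14.4 CPM against 5.32 and 6.20 CPM with EtOH, and at 3 h 14.2 and 15.0 CPM against 6.67 and 4.92 CPM. All 4 dex libraries lay far above the EtOH libraries of their hour, and F3 rose by 1.37 on the log2 scale at 1 h (SE 0.20, edgeR adjusted p = 0.000497) and by 1.35 at 3 h (SE 0.19, adjusted p = 3.24e-06). At 5 h 6.24 and 5.63 CPM overlapped 5.63 and 4.18 CPM. At 7 h the levels were 6.76 and 7.24 CPM against 5.09 and 6.64 CPM, and at 9 h 5.85 and 7.00 CPM against 5.65 and 5.72 CPM. None of these 3 hours was called, with log2 differences of 0.30 (SE 0.25), 0.24 (SE 0.21) and 0.21 (SE 0.23). At 11 h the dex libraries, at 9.34 and 10.1 CPM, again lay above both EtOH libraries, at 4.15 and 4.92 CPM, a rise of 1.09 (SE 0.24, edgeR adjusted p = 0.0112) that was lost without replicate 1 of EtOH (0.98, adjusted p = 0.198). F3 lies on chromosome 1 at 94529225 to 94541800 on the minus strand (GRCh38, GENCODE 29). Its 1834 reads fell on 2 transcripts, with 60.1% and 39.9%, which rose by 1.13 and 1.78 at 1 h.

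The 250 bases before the annotated start are shown for F3, PLAUR and PLAU, the 3 members already called at 1 h. They come from RefSeq (GRCh38.p14), in which 7 of the 9 members matched a window. Capitals mark matches on either strand to TGANTCA, the AP-1 motif, or to TATAAA, the TATA box (read as TTTATA on the other strand).
F3, chr1:94541760-94542009, minus strand: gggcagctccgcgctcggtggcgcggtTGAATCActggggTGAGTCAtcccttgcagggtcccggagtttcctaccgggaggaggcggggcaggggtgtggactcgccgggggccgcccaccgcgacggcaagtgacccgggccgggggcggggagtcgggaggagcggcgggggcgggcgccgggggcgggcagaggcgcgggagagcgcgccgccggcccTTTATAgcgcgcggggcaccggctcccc
PLAUR, chr19:43670170-43670419, minus strand: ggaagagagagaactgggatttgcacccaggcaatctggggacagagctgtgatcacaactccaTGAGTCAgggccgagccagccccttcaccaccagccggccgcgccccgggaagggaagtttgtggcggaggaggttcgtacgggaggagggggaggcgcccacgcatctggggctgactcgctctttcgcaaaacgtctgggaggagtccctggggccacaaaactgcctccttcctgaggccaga
PLAU, chr10:73910882-73911131, plus strand: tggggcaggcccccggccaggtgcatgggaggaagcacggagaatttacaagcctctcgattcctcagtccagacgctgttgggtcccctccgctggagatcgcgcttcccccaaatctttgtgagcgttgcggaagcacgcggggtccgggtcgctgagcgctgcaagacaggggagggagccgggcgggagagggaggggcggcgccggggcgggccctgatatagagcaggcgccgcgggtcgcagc
F3 held 2 AP-1 matches, beginning 223 and 210 bases before the RefSeq start, and a TATA match at 28 bases. PLAUR held 1 AP-1 match, at 186 bases, and PLAU held neither motif in this window. Of 35116 such windows 6.57% held an AP-1 match and 10.7% a TATA match. The glucocorticoid response element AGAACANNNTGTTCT, searched on both strands, was in 1 of all windows and its AGAACA part in 12.4%. The 2 motifs overlap, since the full element contains that part. Neither was in the 9 windows of the 7 members that had one, which leaves out PLAT and TIMP2. The 2 SERPINE2 windows belong to starts 648 and 7810 bases from that of its most counted transcript. Another PLAU window, not shown, belongs to a start 547 bases from that of its most counted transcript. A match describes letters and not a bound site.

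TFPI encodes tissue factor pathway inhibitor, which blocks the complex that F3 forms with factor VII. It was lower from 3 h to 11 h, with the largest difference at the last hour. At 1 h the dex libraries, at 43.5 and 53.7 CPM, lay above both EtOH libraries, at 42.6 and 41.0 CPM, but the difference of 0.24 (SE 0.14) was not called. At 3 h the levels were 35.2 and 37.3 CPM against 48.9 and 50.4 CPM, and at 5 h 43.0 and 34.3 CPM against 44.8 and 58.1 CPM. Both hours had every dex library below every EtOH library, though by little at 5 h, and TFPI fell by 0.45 on the log2 scale at 3 h (SE 0.12, edgeR adjusted p = 0.00978) and by 0.40 at 5 h (SE 0.13, adjusted p = 0.0285). At 7 h the levels were 32.5 and 37.4 CPM against 43.8 and 51.4 CPM. At 9 h they were 29.4 and 26.5 CPM against 41.9 and 39.8 CPM, and at 11 h 24.1 and 22.2 CPM against 47.9 and 45.7 CPM. Dex and EtOH libraries stayed apart, and TFPI fell by 0.47 at 7 h (SE 0.11, edgeR adjusted p = 0.00167), by 0.54 at 9 h (SE 0.13, adjusted p = 0.0126) and by 1.02 at 11 h (SE 0.16, adjusted p = 0.00101). The call at 5 h was lost without replicate 2 of dex (-0.24, adjusted p = 0.322) or replicate 2 of EtOH (-0.19, adjusted p = 0.525) and with DESeq2 (adjusted p = 0.174). Those at 7 h and 9 h were lost without replicate 1 of dex (-0.35, adjusted p = 0.179, and -0.61, adjusted p = 0.131), and that at 9 h also without replicate 2 of dex (-0.45, adjusted p = 0.312). TFPI lies on chromosome 2 at 187464230 to 187565760 on the minus strand (GRCh38, GENCODE 29), and its 2 main transcripts took 46.2% and 44.5% of its 9884 reads.

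MMP14 encodes a membrane-bound metalloproteinase that cuts collagen around the cell. Its 329 reads made it the least counted member, with 6 to 22 reads in each dex library and 7 to 22 in each EtOH library. The 12 dex libraries ran from 0.90 to 1.81 CPM with a median of 1.18 CPM, and the 12 EtOH libraries from 0.72 to 2.15 CPM with a median of 1.29 CPM. MMP14 was called at no time, with 2 libraries a group in edgeR's test. The log2 differences ran from -0.63 at 7 h (SE 0.46, edgeR adjusted p = 0.384) to 0.20 at 1 h (SE 0.46, adjusted p = 0.991). Intervals of 2 SE reached down to -1.56 at 7 h and up to 1.12 at 1 h, and were narrowest at 9 h and 11 h, with SE 0.43 and 0.42, so that only large changes could be seen at this depth. The gene lies on chromosome 14 at 22836557 to 22849027 on the plus strand (GRCh38, GENCODE 29).

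TIMP1 and TIMP2 encode secreted inhibitors of metalloproteinases, and TIMP2 also takes part with MMP14 in activating another of these enzymes. TIMP1 held 12.1 to 19.3 CPM with dex (median 13.9 CPM) and 12.3 to 19.9 CPM with EtOH (median 15.1 CPM). The ranges lay on each other, and TIMP1 was not called at any hour. Its largest difference, -0.37 at 5 h (SE 0.16), came with dex libraries at 15.1 and 13.2 CPM, below the EtOH libraries at 19.9 and 17.4 CPM (edgeR adjusted p = 0.112). At 9 h the difference of -0.28 (SE 0.19, adjusted p = 0.374) became -0.51 (adjusted p = 0.0152) without replicate 1 of EtOH. TIMP2 was the most counted member, with 57134 reads, at 212 to 249 CPM with dex (median 231 CPM) and 214 to 252 CPM with EtOH (median 238 CPM). Its log2 differences stayed between -0.12 at 9 h (SE 0.11, edgeR adjusted p = 0.53) and 0.08 at 3 h (SE 0.10, adjusted p = 0.686), and intervals of 2 SE between -0.33 and 0.28. A minor transcript with 2.38% of its reads was called lower at 9 h when tested alone (-0.73, edgeR adjusted p = 0.0619). An exon of AC022966.1 overlaps TIMP2 on the other strand, with 5.65% of the reads of both. TIMP1 lies on chromosome X at 47582313 to 47586789 on the plus strand and TIMP2 on chromosome 17 at 78852977 to 78925387 on the minus strand (GRCh38, GENCODE 29).

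Whether the dex effect itself differed between hours was tested in 1 fit over all 24 libraries. It did for 5 of the 9 members, against 13.8% of all features: PLAU (edgeR adjusted p = 1.00e-06), SERPINE2 (adjusted p = 0.00131), TFPI (adjusted p = 0.00156), F3 (adjusted p = 0.00211) and PLAT (adjusted p = 0.0598). For PLAUR the test gave adjusted p = 0.531, and for MMP14, TIMP1 and TIMP2 0.849, 0.602 and 0.704. The step from 3 h to 5 h was tested after the levels had been seen, and 3 members were called in it, against 6.01% of all features (2.19% higher, 3.82% lower). The effect on PLAU rose by 1.22 on the log2 scale from 3 h to 5 h (SE 0.17, edgeR adjusted p = 2.29e-05), that on SERPINE2 fell by 0.83 (SE 0.15, adjusted p = 0.000614) and that on F3 fell by 1.04 (SE 0.28, adjusted p = 0.0331). Between 5 h and 11 h 0 of the 9 effects were called to differ by edgeR's test, against 2.42% of all features called (1.76% higher, 0.658% lower). DESeq2 called 0 of the 7 for which it gave an adjusted p (none for PLAT or MMP14). In edgeR's test 4 members had an unadjusted p under 0.05, for which no share of all features was computed. The nearest were TFPI, whose effect at 11 h minus that at 5 h was -0.62 (SE 0.19, adjusted p = 0.116), and SERPINE2 at 0.45 (SE 0.15, adjusted p = 0.141). With EtOH alone 0 of the 9 levels were called to differ over time by edgeR, against 3.33% of all features called. DESeq2 called 0 of the 6 for which it gave an adjusted p (none for F3, PLAT or MMP14). PLAUR and TIMP1 were the 2 with an unadjusted p under 0.05 in edgeR's test, again without a share of all features computed. The time difference of PLAT was lost without replicate 1 of dex at 1 h (adjusted p = 0.193), replicate 1 of EtOH at 1 h (0.166) or replicate 1 of EtOH at 11 h (0.118), and DESeq2 gave PLAT no adjusted p here. The step of F3 was lost without replicate 2 of dex at 5 h (adjusted p = 0.124), replicate 2 of EtOH at 3 h (0.17) or replicate 1 of EtOH at 5 h (0.225). Between 5 h and 11 h, TFPI was called without replicate 1 or 2 of dex at 1 h, replicate 2 of dex or of EtOH at 5 h, or replicate 1 of dex at 11 h (adjusted p from 0.0625 to 0.0941). There SERPINE2 was called without replicate 1 of dex at 11 h (adjusted p = 0.0526) and PLAU without replicate 2 of dex at 11 h (adjusted p = 0.0505). TIMP1 was called over time with EtOH without replicate 1 at 9 h (adjusted p = 0.0452).

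Levels were compared between genes only per length, as TPM (the share of a transcript per length, in parts per 1000000), computed from the deposited counts and transcript lengths. In the 12 EtOH libraries the median levels ran from TIMP2 at 136 TPM over SERPINE2 at 88.7 TPM, PLAU at 60.4 TPM, TIMP1 at 42.9 TPM, TFPI at 31.6 TPM and PLAUR at 21.3 TPM to F3 at 4.98 TPM, PLAT at 1.54 TPM and MMP14 at 0.82 TPM. TIMP2 and SERPINE2, SERPINE2 and PLAU, PLAUR and F3, and F3 and PLAT had ranges that did not meet. Neighbours whose ranges met were PLAU and TIMP1, and TIMP1 and TFPI, in which the first was higher in 12 of 12 libraries, TFPI and PLAUR (11 of 12), and PLAT and MMP14 (10 of 12).

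Ratios within a library set an enzyme or initiator against an inhibitor. PLAU TPM divided by SERPINE2 TPM lay between 0.53 and 0.76 in every EtOH library. With dex it was 0.42 in both libraries at 1 h and 0.36 to 0.46 at 3 h, below all EtOH libraries, then 1.54 to 1.55 at 5 h, 0.98 to 1.17 at 7 h and 1.00 to 1.05 at 9 h, above all of them. At 11 h the ratio of 0.75 to 0.87 with dex met the EtOH range. F3 TPM divided by TFPI TPM lay between 0.10 and 0.19 with EtOH. With dex it was 0.35 to 0.45 at 1 h, 0.53 to 0.56 at 3 h, 0.20 to 0.23 at 5 h, 0.24 to 0.26 at 7 h, 0.26 to 0.31 at 9 h and 0.51 to 0.60 at 11 h. All 12 dex libraries were thus above the 12 EtOH libraries in this ratio, which describes transcripts and neither protein nor activity.

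**Figure D3:**
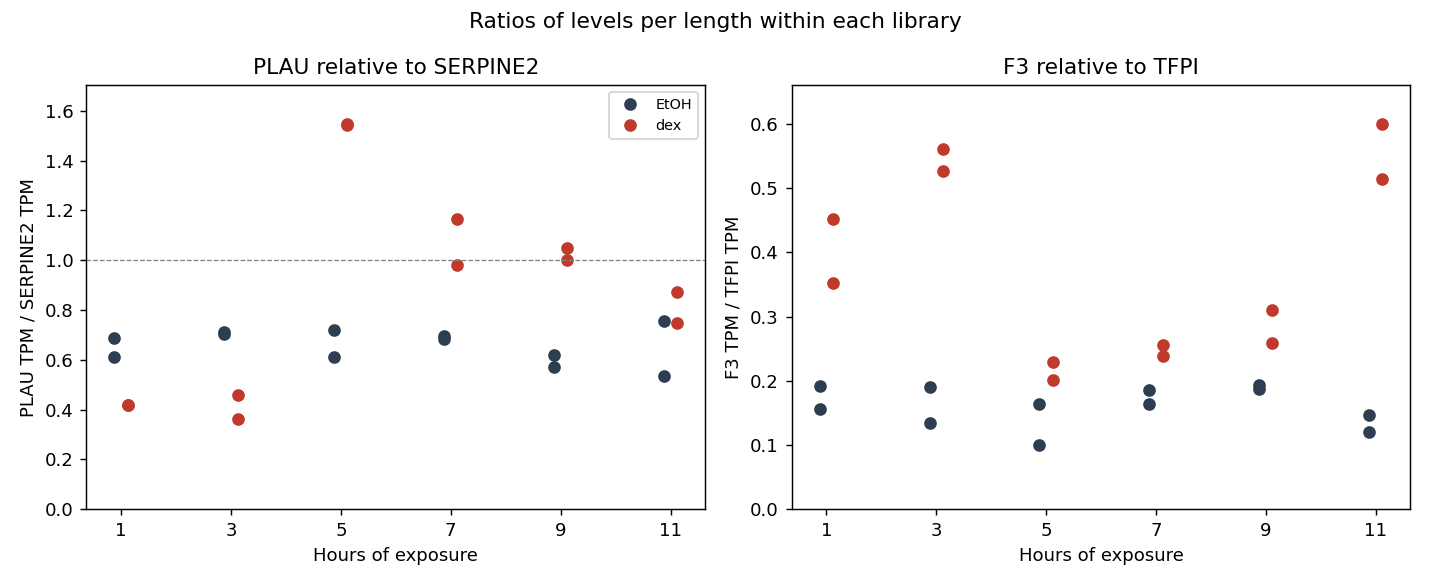
Ratio of PLAU to SERPINE2 TPM (left) and of F3 to TFPI TPM (right) in each library against hours of exposure, with dex and EtOH as separate points and a dashed line where the left ratio is 1. The PLAU to SERPINE2 ratio with dex goes from at most 0.46 at 3 h to at least 1.54 at 5 h.

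Other genes of these systems were listed by function, with earlier results of these data known. Of 21 further genes of plasminogen activation, 14 were tested, and 4 rose at 2 or more consecutive times, against 9.7% of all features. CPB2, among these 4, held enough reads to be tested only because of its dex libraries. It could thus hardly be called lower, and its call does not bear on that share. THBD (thrombomodulin, which turns thrombin towards the anticoagulant protein C) held 58.0 and 68.1 CPM with EtOH and 248 and 230.0 CPM with dex at 5 h, so that both dex libraries were far above both EtOH libraries. THBD rose at all 6 times, by 1.06 at 1 h (SE 0.11, edgeR adjusted p = 1.1e-05) and by 2.33 at 9 h (SE 0.11, adjusted p = 1.99e-09). ANXA2 and S100A10, which form a complex that binds plasminogen, rose at 3 h, 5 h and 7 h, by 0.32 to 0.60. CPB2, which makes fibrin resist plasmin, had at most 2 reads in any EtOH library, and rose at 5 h, 7 h and 9 h on 5 to 13 reads a dex library, but not with DESeq2, and its consecutive calls were lost without either dex library or replicate 1 of EtOH at 7 h. The median log2 difference of the tested genes of this list ran from 0.0051 at 1 h to 0.16 at 3 h, against -0.0097 to 0.0044 over all features.

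Of 14 further genes of coagulation, 9 were tested. The thrombin receptor F2R rose at 5 of the 6 times and the protease receptor F2RL1 at all 6, by 0.48 at 1 h (SE 0.11, edgeR adjusted p = 0.0358) and 1.24 at 9 h (SE 0.11, adjusted p = 8.48e-07). PROCR, the receptor for protein C, rose at 5 h and 7 h, by 0.73 and 0.57. These 3 rose at 2 or more consecutive times, against 9.7% of all features. F2RL2 and TFPI2 instead fell at 2 or more consecutive times, against 8.63% of all features. F2RL2, another receptor of the thrombin receptor family, fell by 0.89 at 3 h (SE 0.23, edgeR adjusted p = 0.0102) and fell by 1.79 at 7 h (SE 0.24, adjusted p = 3.8e-07). TFPI2, a relative of TFPI that inhibits plasmin, fell by 0.29 at 3 h and by 0.73 at 7 h (SE 0.09, edgeR adjusted p = 1.62e-07). The median of the list was 0.53 at 5 h and 0.57 at 7 h but 0.12 to 0.16 at the other hours, against -0.0097 to 0.0044 over all features.

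Of 21 metalloproteinases and their regulators, 19 were in the table and 12 were tested. MMP15, a membrane-bound relative of MMP14, rose from 3 h (1.07, SE 0.15, edgeR adjusted p = 4.72e-06) to 11 h (1.49, SE 0.20, adjusted p = 0.000326). MMP24, also membrane-bound, rose over the same hours, by 0.49 to 0.79. These were 2 of 12, against 9.7% of all features higher and 8.63% lower at consecutive times, and the other 10 met neither rule. The median of the list ran from -0.25 at 7 h to 0.16 at 3 h.

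**Figure D4:**
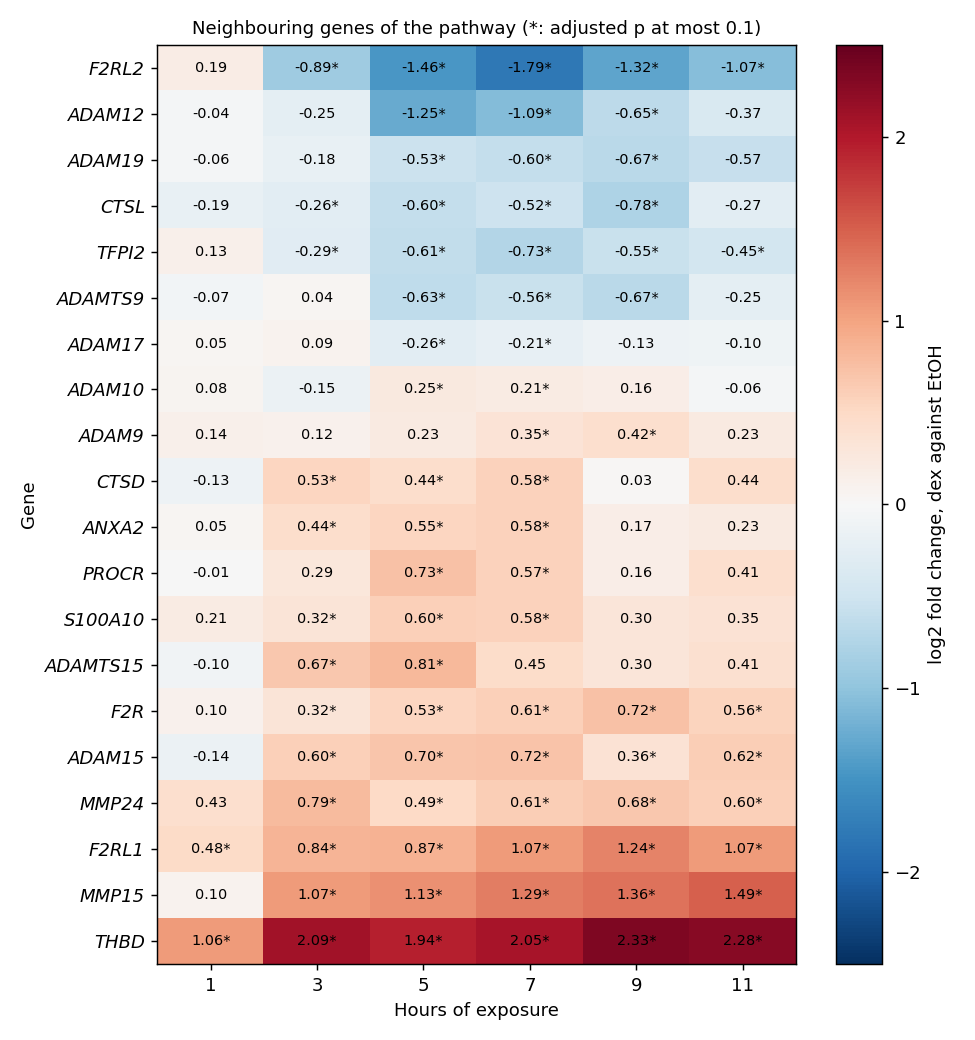
Fitted log2 ratio of dex over EtOH at each hour for genes of the pathway lists called at 2 or more consecutive times, as colour and number with an asterisk where called, with CPB2 left out because its EtOH libraries held at most 2 reads. THBD, F2RL1 and MMP15 are higher and F2RL2 and TFPI2 lower over most of the hours.

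For each member called at consecutive times, the 3 tested genes with the smallest root mean square difference in the 6 fitted log2 ratios were found, as a description over 6 times and not a test. PRIMPOL (0.060), NCS1 (0.067) and KIF15 (0.069) were nearest to SERPINE2. ZNF555, BCL3 and TMX2-CTNND1 were nearest to PLAU, at 0.156, 0.156 and 0.157, with BCL3 at -0.34 at 3 h and 0.83 at 5 h. IER5 (0.195), EDN1 (0.246) and BDNF (0.262) were nearest to PLAUR, and SAMD9 (0.106) to TFPI. KCNJ8 (0.280), IGFBP1 (0.291) and F5 (0.323), the gene of clotting factor V, were nearest to F3, though F5 was called at no time. The nearest to PLAT was BCL2, at 0.386, a wide distance on few reads.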

How the data were processed

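Poly-A RNA from A549 cells was sequenced by the authors, who mapped reads to GENCODE transcripts with Bowtie and deposited whole-number counts per transcript, made with SAMtools (hg19 in the submitters' processing notes). The deposited table lists 119207 transcripts in 24 libraries and has no columns of other samples. The labels of each sample gave its treatment, hour and replicate. Transcript identifiers without version were matched to GENCODE 29, which placed 110262 transcripts and 94.1% of counts, and counts were summed per gene to 42072 features, of which 33127 are genes. Reads that map to several transcripts can move between isoforms of a gene before deposit, which the sum per gene is less open to.

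Libraries held 6708864 to 13748598 counts. Features kept by filterByExpr over the 12 groups (19897) were tested with edgeR 4.0.16 (R 4.3.3), with TMM normalization and the robust quasi-likelihood F-test, 2 dex against 2 EtOH libraries per time point, adjusting p by Benjamini-Hochberg; a call needed at most 0.1, as in the study's methods. The script was tested on simulated data. Effects over time were tested in 1 fit of 24 libraries. The study's methods speak of a paired ethanol control. Deviations of dex and EtOH libraries with the same replicate number correlated at between -0.105 at 3 h and 0.20 at 1 h, with 0.13 at 9 h. The main fits therefore used no pairing by replicate number, though a pairing at some hours is not excluded. Replicates of a group differed by more than sampling noise. TPM was computed from counts and GENCODE 29 transcript lengths. Figures were drawn with matplotlib 3.10.9.

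Alternatives were DESeq2 1.42.0, its size factors in edgeR, no filter, at least 10 counts in every library, a threshold of 0.05, blocking on replicate number, fitting all 24 libraries at once, 1 transcript per gene (smallest combined p) and leaving out each library. The text names the 9 members and, from each list of pathway genes, at most 5 per direction that were called at 2 or more consecutive times, by absolute mean log2 ratio. Some genes of these pathways are not reported here. Members and lists were chosen with earlier results of these data known. The contrast of 5 h with 3 h and the crossed block at 3 h were added after the data had been seen.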

Additional observations from a re-analysis of the deposited data

Results flagged for a closer look

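The effect of dex differed between hours, by a test of the difference itself over the 24 libraries in edgeR, for 5 of the 9 members, against 13.8% of all features. PLAU was lower at 1 h and 3 h and higher at 5 h, 7 h and 9 h (edgeR adjusted p = 1.00e-06 over the 6 hours, and 2.29e-05 for 5 h against 3 h). SERPINE2 was lower at 5 h, 7 h and 9 h (edgeR adjusted p = 0.00131 over the 6 hours, and 0.000614 for 5 h against 3 h). F3 was higher at 1 h, 3 h and 11 h (edgeR adjusted p = 0.00211 over the 6 hours, and 0.0331 for 5 h against 3 h). That step of F3 was lost without replicate 2 of dex at 5 h (edgeR adjusted p = 0.124), replicate 2 of EtOH at 3 h (0.17) or replicate 1 of EtOH at 5 h (0.225). TFPI moved from a log2 difference of 0.24 at 1 h to -1.02 at 11 h (edgeR adjusted p = 0.00156 over the 6 hours). PLAT moved from 0.61 at 1 h to -1.75 at 11 h on 334 reads in all (edgeR adjusted p = 0.0598 over the 6 hours), a call that was lost without replicate 1 of dex at 1 h (adjusted p = 0.193), replicate 1 of EtOH at 1 h (0.166) or replicate 1 of EtOH at 11 h (0.118). The comparison of 5 h with 3 h was chosen after the levels had been seen. Groups of 2 libraries are too small to look for a library far from the others.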

How the results depend on the processing

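With DESeq2's size factors in edgeR, with no filter and with 1 fit over 24 libraries, each of the 54 member log2 differences kept its sign and its side of the threshold. At least 10 counts in every library left PLAT and MMP14 out, and the remaining 42 kept both but for TIMP1, at -0.0012 at 7 h and 0.00071 at 11 h. DESeq2 called 3 members at 5 h and 2 at 9 h, a threshold of 0.05 called 3 at 9 h, and 1 transcript per gene called 3 at 5 h, 2 at 9 h and 2 at 11 h. At 9 h the 2 called transcripts were those of TFPI and, not called per gene, of TIMP2 (-0.73, edgeR adjusted p = 0.0619). The cause was not tested. Over all features DESeq2 called 1324 at 3 h, 2660 at 5 h, 2727 at 7 h and 2032 at 9 h, against 2576, 4606, 5132 and 3624. At 1 h no filter called 295 against 172, and at 11 h the fit over 24 libraries 2971 against 1707.

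The replicate number as a block called 634 of all features at 1 h. It turned TIMP1 at 3 h to -0.0024 and called TIMP1 at 5 h (-0.38, edgeR adjusted p = 0.0822), and changed no other member call. The crossed pairing at 3 h, added after the data had been seen, called 4 members and 4181 of all features. Of differences that were not called, 1 transcript per gene reversed TIMP1 (-0.75 at 1 h, -0.23 at 3 h, 0.27 at 5 h, -0.87 at 7 h, 0.12 at 9 h), TIMP2 (-0.27 at 1 h, 0.26 at 5 h, 0.58 at 7 h) and MMP14 (-0.29 at 3 h).

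Leaving out each library, with a lone library taken to vary like the others, called 1 to 3 members at 1 h, 4 to 4 at 3 h, 3 to 5 at 5 h, 1 to 4 at 7 h, 1 to 5 at 9 h and 1 to 5 at 11 h. Over all features it called 94 to 762 at 1 h, 1542 to 3010 at 3 h, 3530 to 3973 at 5 h, 2660 to 5898 at 7 h, 1298 to 6105 at 9 h and 856 to 5870 at 11 h. The effect differed over time for 4 to 5 members, between 3 h and 5 h for 2 to 3, between 5 h and 11 h for 0 to 2, and EtOH levels over time for 0 to 1. Signs turned for MMP14 (-0.31 to 0.47 at 1 h, -0.32 to 0.54 at 3 h, -0.75 to 0.34 at 5 h, -0.36 to 0.74 at 9 h), TIMP1 (-0.0025 to 0.32 at 1 h, -0.29 to 0.28 at 3 h, -0.079 to 0.079 at 7 h, -0.21 to 0.19 at 11 h), TIMP2 (-0.028 to 0.15 at 1 h, -0.071 to 0.062 at 7 h, -0.12 to 0.0019 at 11 h), PLAT (-0.45 to 0.21 at 3 h) and PLAU (-0.0054 to 0.38 at 11 h), none of them called with all libraries. Depth limits PLAT and MMP14, at 4 to 26 and 6 to 22 reads a library.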

Other observations

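Of 16 adamalysins and cathepsins (proteases that shed membrane proteins, cut matrix or work in lysosomes), 14 were tested and 10 changed at 2 or more consecutive times, 5 in each direction, against 9.7% higher and 8.63% lower over all features. ADAM12, a shedding protease of the membrane, fell by 1.25 at 5 h (SE 0.17, edgeR adjusted p = 1.49e-07), and ADAM15, a relative, rose by 0.70 at 5 h (SE 0.11, edgeR adjusted p = 1.27e-06). The lysosomal proteases moved apart, CTSL falling by 0.60 and CTSD rising by 0.44 at 5 h. ADAM19 and ADAMTS9 fell at 5 h, 7 h and 9 h, by 0.53 to 0.67. ADAM17 fell at 5 h and 7 h by 0.26 and 0.21, ADAM9 rose at 7 h and 9 h by 0.35 and 0.42, ADAM10 rose at 5 h and 7 h by 0.25 and 0.21, and ADAMTS15 rose at 3 h and 5 h by 0.67 and 0.81. DESeq2 called ADAM10 and ADAM17 at no time and ADAMTS15 once. The consecutive calls of ADAM9 were lost without either dex library at 9 h, those of ADAMTS15 without replicate 1 of dex or either EtOH library at 3 h, and those of ADAM19 and ADAMTS9 without replicate 1 of dex at 7 h, which left calls at 5 h and 9 h. Those of ADAM10 were lost without replicate 1 of dex or EtOH at 5 h, either dex library at 7 h or replicate 1 of EtOH at 7 h, and those of ADAM17 without either dex library or replicate 2 of EtOH at 5 h or at 7 h.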
